A study of Mus musculus with 22 samples.

Results

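The genes described here are 10 members of the AP-1 and immediate early group: the AP-1 subunits Fos, Fosb, Fosl2, Jun and Junb, the related factor Atf3, the zinc finger factor Egr1, the small nuclear protein gene Ier2, the orphan nuclear receptor gene Nr4a1 and the phosphatase gene Dusp1. They were taken by symbol from a count table of 44792 mouse genes, and all 10 were found and passed the expression filter that left 18931 genes for testing. RNA was sequenced from retinal cells of C57BL/6 mice in 4 groups. Müller glia, the support cells that span the retina, were sorted by fluorescence from Rlbp1-GFP reporter mice, in which the promoter of a retinoid carrier gene marks these cells. The donors were young mice aged 2 to 3 months (2 libraries), mice of that age injected in the eye with NMDA, a glutamate receptor agonist toxic to retinal neurons, 2 days before collection (3 libraries), and aged mice of 1.5 years (2 libraries). Retinal progenitor cells (RPCs), the dividing cells that build the retina, came from embryonic day 12.5 (3 libraries), and the labels call them collected without naming a sort or a reporter. DNA methylation was read by reduced representation bisulfite sequencing (RRBS), which covers CpG-rich fragments, in 3 libraries of each group. Nothing in the labels states the dissociation method, the time from death to lysis or a vehicle-injected control.

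Immediate early genes are transcribed within minutes of a stimulus from machinery already present in the cell, through MAP kinases acting on SRF partners and through CREB, and most of their transcripts and proteins are short-lived. FOS and JUN family proteins pair through leucine zippers to form AP-1, which binds TGACTCA and its relatives, and DUSP1 closes a loop by removing phosphate from the MAP kinases. The group is known both as an early response of Müller glia to retinal damage and, in many tissues, as a response of cells to enzymatic dissociation.

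The bases just before the start sites are shown because they carry the elements through which this class of gene is known to be switched on. RefSeq promoter entries (build GRCm38.p6) matched 8 of the 10 members, all but Egr1 and Ier2, and the 150 bases before the start are printed for 6 of them. Capitals mark every match on either strand to TGACG, the core of a CREB site, to TGACGTCA, the full CREB site, to TGACATCA, an AP-1-like variant, to GCGNGGGCG, an EGR site, or to TATAAA.
Fos, chr12:85473740-85473889, plus strand: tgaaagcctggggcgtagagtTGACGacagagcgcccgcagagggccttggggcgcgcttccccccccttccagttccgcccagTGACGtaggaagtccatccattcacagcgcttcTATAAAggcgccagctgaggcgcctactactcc
Fosl2, chr5:32136322-32136471, plus strand: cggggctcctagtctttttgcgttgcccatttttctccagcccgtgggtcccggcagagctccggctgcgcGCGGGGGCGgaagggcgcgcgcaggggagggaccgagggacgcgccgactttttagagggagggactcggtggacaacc
Jun, chr4:95052223-95052372, minus strand: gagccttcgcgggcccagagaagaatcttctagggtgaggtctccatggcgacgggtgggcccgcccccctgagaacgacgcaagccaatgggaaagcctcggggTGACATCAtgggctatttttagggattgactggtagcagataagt
Atf3, chr1:191183334-191183483, minus strand: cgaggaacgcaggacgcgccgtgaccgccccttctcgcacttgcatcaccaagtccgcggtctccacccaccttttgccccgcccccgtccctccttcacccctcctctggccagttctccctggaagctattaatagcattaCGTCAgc
Nr4a1, chr15:101266696-101266845, plus strand: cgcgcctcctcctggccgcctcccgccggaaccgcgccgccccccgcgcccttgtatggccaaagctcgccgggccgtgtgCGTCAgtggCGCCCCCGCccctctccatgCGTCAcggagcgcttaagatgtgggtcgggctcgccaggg
Dusp1, chr17:26508473-26508622, minus strand: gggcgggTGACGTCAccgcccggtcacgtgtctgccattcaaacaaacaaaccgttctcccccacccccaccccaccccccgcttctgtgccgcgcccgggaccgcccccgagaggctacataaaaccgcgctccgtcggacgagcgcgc
Over the 250 bases before the start, TGACG was found in 6 of the 8 members (Fos, Fosb, Junb, Atf3, Nr4a1 and Dusp1), against 17.9% of all 27025 promoters of that length. The full TGACGTCA, which contains this core on both strands, was found in Dusp1 alone, against 1.62% of all promoters. TGACATCA was found in Jun alone (3.02% of all promoters), starting 45 bases before the start site. GCGNGGGCG was found in Fosb, Fosl2 and Nr4a1 (4.65%), TATAAA in Fos alone (13.0%), 33 bases before its start, and TGACTCA (4.43%) and the CArG box bound by SRF (1.4%) in no member. The member promoters held 58.4% to 74.4% G and C and 15 to 34 CpGs, against medians of 52.0% and 6 CpGs over all promoters. A match is a description of these letters, and the table's start may not be the one used in these cells. Bases farther upstream, and the promoters of Egr1 and Ier2, were not searched, so a motif found in no member may lie there.

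Libraries held 10149390 to 36486072 counts, and levels below are counts scaled by the total of the library (CPM). Each difference is a log2 value with its standard error, from edgeR's quasi-likelihood test fitted on all 10 libraries, and a gene was called at a Benjamini-Hochberg adjusted p under 0.05. The labels fit the marker lists: the summed level of 18 Müller markers was 60405 to 71068 CPM in young and aged libraries, 23382 to 30867 after NMDA and 3248 to 3293 in RPCs. The label of NMDA injury fits Gfap, an intermediate filament gene of reactive glia, at 860 to 1169 CPM after NMDA, 44.0 and 17.8 CPM in young libraries and 44.9 and 69.6 CPM in aged ones. Photoreceptor transcripts were present in every Müller library, with a summed level of 6107 to 15492 CPM over 15 markers, against 29.7 to 38.5 CPM in RPCs. In sorted populations of this kind fewer cells of a type and less RNA per cell cannot be told apart.

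One library stands apart and touches every comparison with young cells. The members together made up 0.896% of all counts in young 1 and 0.383% in young 2, against 0.289% to 0.325% in the NMDA libraries and 0.395% and 0.306% in aged 1 and aged 2. RPC libraries held 0.0106% to 0.0119%. Between young 1 and young 2 the member ratios ran from 0.940 (Atf3) to 3.11 (Fosb), with a median of 2.23, whereas the median ratio over 12242 genes with at least 100 counts was 1.00. The 30 other immediate early genes summed to 6051 CPM in young 1 and 2733 CPM in young 2, the 12 heat shock genes to 2455 and 1714 CPM, and the photoreceptor markers to 15492 and 10558 CPM. The part of handling, of photoreceptor RNA or of the animals in this gap was not tested. Results against young cells are therefore given with and without young 1. Between the aged libraries the median member ratio was 1.30, against 1.00 over 14366 genes.

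**Figure D1:**
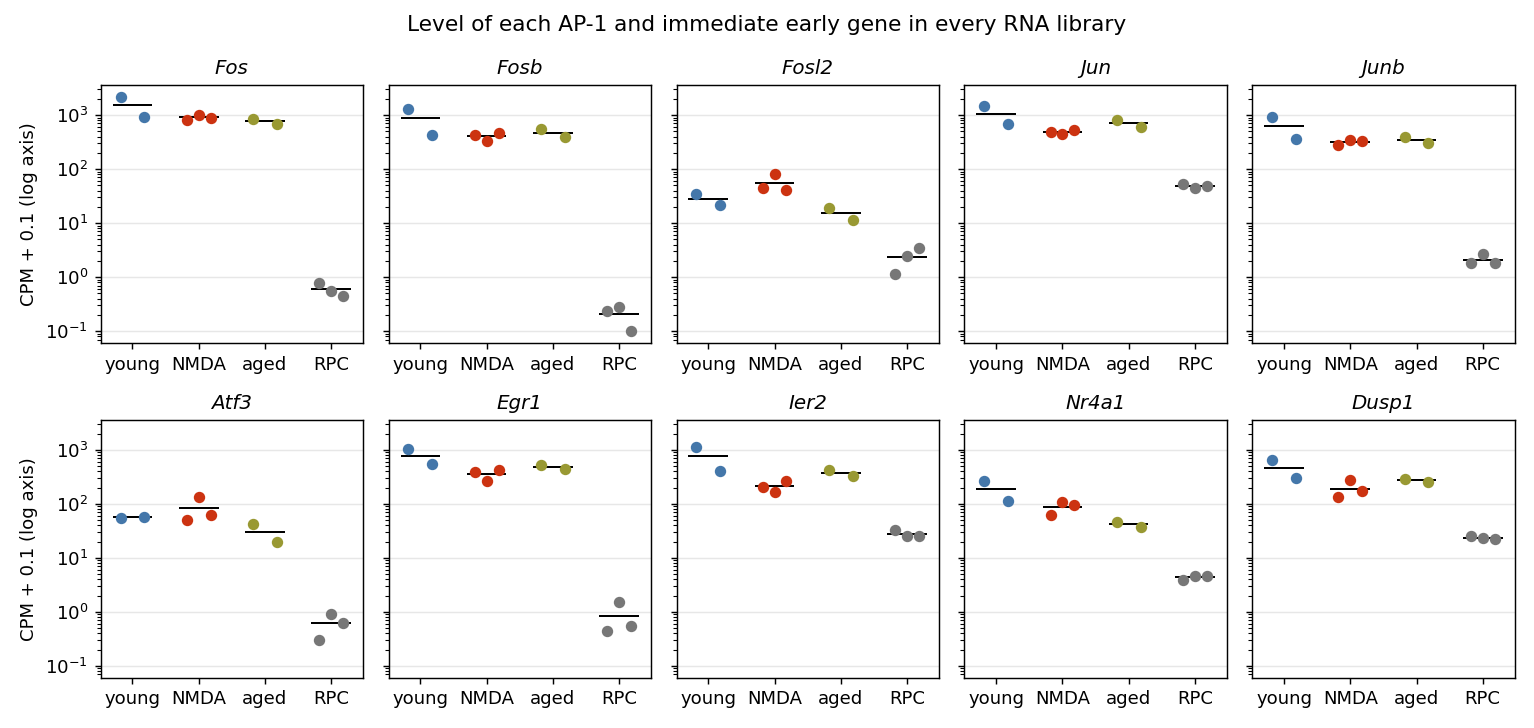
CPM plus 0.1 on a log axis for each of the 10 members in every RNA library, with 1 point per library and a black bar at the group mean. Every member is far lower in the 3 RPC libraries than in the 7 Müller libraries, and young 1 (left point of the young pair) is the highest Müller library for 8 of the 10 members, all but Fosl2 and Atf3.

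The first comparison asks how the group differs between Müller glia 2 days after NMDA and undamaged Müller glia of the same age. No member rose and 5 of 10 fell (Jun, Egr1, Ier2, Nr4a1 and Dusp1), where 44.9% of all tested genes were called, 30.6% higher and 14.3% lower. The median log2 difference of the members was -0.99, beside 0.26 over all genes tested. With upper-quartile scaling the median of all genes came to 0.04 and 8 members were called lower. That scaling called 5094 genes higher and 3825 lower, in place of 5795 and 2702. Fosl2 and Atf3 had positive differences and the other 8 members negative ones. The libraries of 6 members (Jun, Junb, Egr1, Ier2, Nr4a1 and Dusp1) were lower after NMDA without overlap, which 21.3% of tested genes also showed, and those of Fosl2 were higher without overlap. Without young 1 only Ier2 remained lower and Fosl2 was called higher, and no other member was called. Without young 2, where more of all tested genes were also called lower, the members' count called lower rose. It was 1 without NMDA 1 (Ier2), 2 without NMDA 3 (Jun and Ier2) and 3 without NMDA 2 (Ier2, Nr4a1 and Dusp1), and 3 (Jun, Ier2 and Dusp1) without aged 1, aged 2 or RPC 3. The loss of young 1 leaves young 2 as the sole young library, whose spread was then taken from the other groups.

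Among the FOS subunits, Fos (chr12:85473890-85477274), the partner that gives AP-1 its strongest transactivation, was at 2189 and 934 CPM in young cells. It was at 822, 1016 and 887 CPM after NMDA and at 851 and 680 CPM in aged cells. The NMDA libraries lay around young 2 and below young 1, and the groups overlapped. The NMDA-to-young difference was -0.68 ± 0.31 with an edgeR adjusted p of 0.11, and 0.10 without young 1. Against aged cells it was 0.17 ± 0.32 (edgeR adjusted p = 0.776).

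Fosb (chr7:19302696-19310118), whose protein can replace FOS in the dimer, was at 1306 and 420 CPM in young cells and 418, 335 and 459 CPM after NMDA. Its aged libraries had 542 and 393 CPM. As with Fos, only young 1 was outside the range of 335 to 542 CPM that held the other 6 Müller libraries. The NMDA difference from young was -0.997 ± 0.41 (edgeR adjusted p = 0.0772) and became 0.08 without young 1.

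Fosl2 (chr5:32136472-32157840), which encodes FRA2, a FOS relative without the strong activation domain of FOS, had the opposite order. It was at 34.7 and 21.6 CPM in young cells, 44.2, 81.0 and 41.1 CPM after NMDA, and 19.3 and 11.1 CPM in aged cells. All 3 NMDA libraries were above all 4 undamaged Müller libraries, a separation that 37.1% of tested genes showed against young cells and 36.7% against aged cells. The difference was 1.08 ± 0.49 against young cells (edgeR adjusted p = 0.104) and 1.50 without young 1 (edgeR adjusted p = 0.0463). Against aged cells Fosl2 was 3.43-fold higher, a log2 difference of 1.78 ± 0.50 (edgeR adjusted p = 0.0381). It was the only member called in that comparison, where 10.5% of tested genes were called higher and 9.8% lower. That call was lost, at values of 1.40 to 2.24, without NMDA 1, NMDA 2, NMDA 3, aged 1 or aged 2 (edgeR adjusted p 0.0559 to 0.254), and without RPC 2 at 1.78 (edgeR adjusted p = 0.0657). In the other direction Jun, Egr1 and Ier2 were lower after NMDA than in aged cells without overlap, as were 27.4% of tested genes. With either young library left out of the fit, further members were called in both directions against aged cells, with differences of the same size. More of all tested genes were then called in both directions too.

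Of the JUN subunits, Jun (chr4:95049036-95052222), the most common partner of FOS, was at 1439 and 673 CPM in young cells. It was at 481, 447 and 526 CPM after NMDA and at 815 and 601 CPM in aged cells. Every NMDA library was below every undamaged Müller library. Jun fell after NMDA by 1.02 ± 0.29 on the log2 scale against young cells (edgeR adjusted p = 0.0185). The difference was -0.34 without young 1 (edgeR adjusted p = 0.148) and -0.63 ± 0.29 against aged cells (edgeR adjusted p = 0.165).

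Junb (chr8:84976909-84978748), a JUN relative that is a weaker activator, was at 902 and 354 CPM in young cells and 281, 349 and 338 CPM after NMDA. The aged libraries had 387 and 305 CPM. The NMDA libraries lay below both young libraries, but by only 5 CPM in the closest pair. The difference was -0.86 ± 0.33 (edgeR adjusted p = 0.0634), and 0.0031 without young 1.

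Atf3 (chr1:191170296-191183333), a stress-induced factor that pairs with JUN proteins and often represses, was at 54.5 and 57.9 CPM in young cells. It was at 51.2, 134 and 63.0 CPM after NMDA and at 41.4 and 19.3 CPM in aged cells. Its high value came from NMDA 2, and the remaining NMDA libraries were within 10 CPM of the young ones. The difference was 0.67 ± 0.48 against young cells (edgeR adjusted p = 0.288) and 1.37 ± 0.49 against aged cells (edgeR adjusted p = 0.086). Without NMDA 2 the second value was 0.83.

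NMDA 2, the library with the highest Atf3 and Fosl2, also had the most RNA of other cells. The 16 microglia and macrophage markers summed to 4813 CPM in NMDA 2, against 430 and 949 CPM in NMDA 1 and NMDA 3, 13.3 and 107 CPM in young cells, 116 and 136 CPM in aged cells and 69.0 to 86.5 CPM in RPCs. Of these 16 markers, 12 rose after NMDA against young cells and 7 against aged cells (8 to 15 and 0 to 13 with each library left out), and none fell. Over all tested genes 30.6% were called higher against young cells and 10.5% against aged cells. In young 1 and young 2, 13 and 3 of the markers were at 0, with Trem2, Ptprc and Aif1 at 0 in both, and none was at 0 in the other libraries. Fosl2 was at 44.2 and 41.1 CPM in NMDA 1 and NMDA 3, and at 34.7 CPM in young 1. Both of these NMDA libraries still held more of the marker transcripts than any undamaged Müller library. The part of such transcripts in the levels of Atf3 and Fosl2 was not tested.

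**Figure D2:**
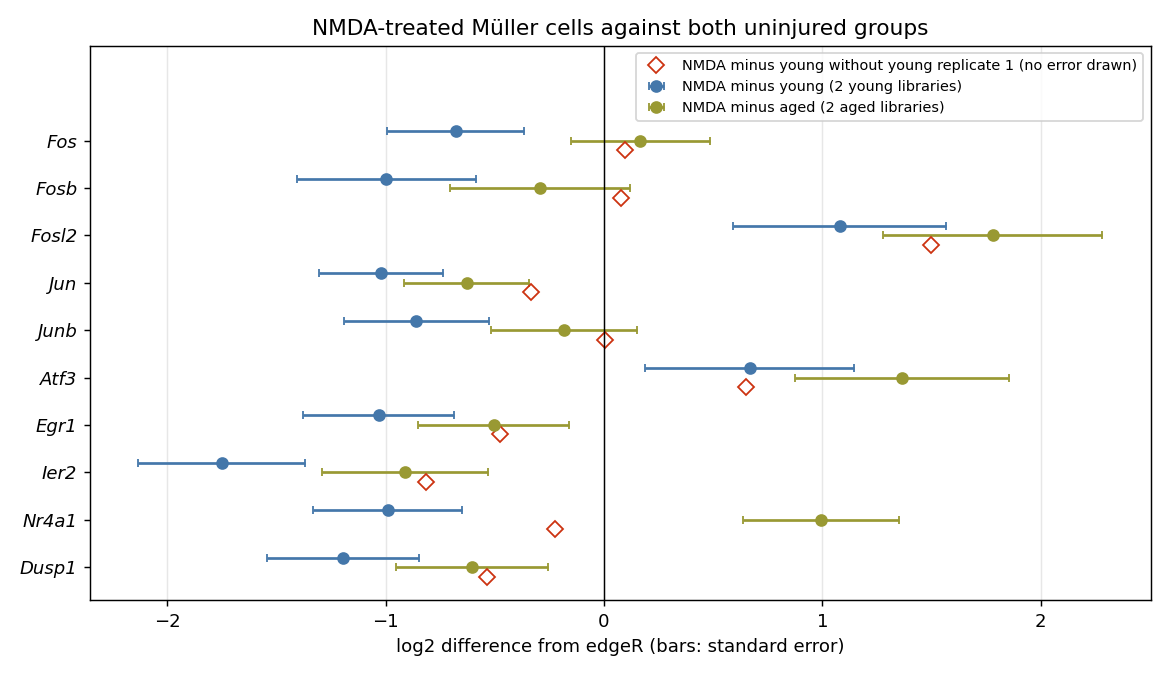
Log2 difference of each member after NMDA from young cells (blue), from aged cells (olive, both with standard error bars from edgeR) and from young cells with young 1 left out (open diamonds, no error drawn). Fosl2 and Atf3 lie to the right of 0 in all 3, Jun, Egr1, Ier2 and Dusp1 to the left in all 3, and Fos, Fosb and Junb move to or past 0 without young 1.

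Of the members outside AP-1, Ier2 had the largest difference of NMDA from young cells with all libraries in the fit. Ier2 (chr8:84661331-84662852), a nuclear protein gene induced by growth factors, was at 1117 and 409 CPM in young cells. It was at 209, 165 and 260 CPM after NMDA and 430 and 322 CPM in aged cells. The 3 NMDA libraries were the lowest of the 7 Müller libraries. Ier2 fell after NMDA by 1.75 ± 0.38 against young cells, 3.37-fold (edgeR adjusted p = 0.00616). It stayed past the threshold under all 18 alternatives run, at log2 differences of -2.31 to -0.66, and was -0.81 without young 1 (edgeR adjusted p = 0.0249). Against aged cells the value was -0.91 ± 0.38 (edgeR adjusted p = 0.132).

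Egr1 (chr18:34861207-34864956), a transcription factor that follows ERK activity, was at 1019 and 546 CPM in young cells, 395, 260 and 415 CPM after NMDA and 522 and 435 CPM in aged cells. Its NMDA libraries were all below its undamaged ones, with 20 CPM or less between NMDA 3 and aged 2. Egr1 fell by 1.03 ± 0.35 against young cells (edgeR adjusted p = 0.0383). The value was -0.48 without young 1 (edgeR adjusted p = 0.205).

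Dusp1 (chr17:26505591-26508472) was at 635 and 305 CPM in young cells, 131, 271 and 171 CPM after NMDA and 293 and 256 CPM in aged cells. NMDA 1 and NMDA 3 were the lowest, and NMDA 2 lay between the aged libraries. Dusp1 fell by 1.20 ± 0.35 against young cells (edgeR adjusted p = 0.0217), and was -0.54 without young 1 (edgeR adjusted p = 0.169).

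Nr4a1 (chr15:101253902-101274795), a ligand-independent nuclear receptor gene, was at 263 and 113 CPM in young cells, 62.1, 108 and 94.3 CPM after NMDA and 46.6 and 37.1 CPM in aged cells. The 3 Müller groups did not overlap, in the order young, NMDA, aged. Nr4a1 fell by 0.99 ± 0.34 after NMDA against young cells (edgeR adjusted p = 0.0424), a value of -0.22 without young 1 (edgeR adjusted p = 0.478). The NMDA difference from aged cells was 0.99 ± 0.36 (edgeR adjusted p = 0.0862).

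With age, Nr4a1 was the only member called. It was 3.96-fold lower in aged than in young cells, a log2 difference of -1.99 ± 0.39 (edgeR adjusted p = 0.00674). Of all tested genes 27.0% were called, 21.1% as higher and 5.85% as lower. Without young 1 it was -1.22 (edgeR adjusted p = 0.00816), so the size moved by over 1.5 times while the call stood. The call was lost without aged 2, at -1.82 (edgeR adjusted p = 0.0589). The libraries of 6 members (Fos, Fosl2, Atf3, Egr1, Nr4a1 and Dusp1) were lower in aged than in young cells without overlap, as were 23.3% of tested genes. All 10 members had negative differences, with a median of -0.70 beside 0.13 over all genes. Without young 1 the sign turned for Fosb, Jun, Junb, Egr1, Ier2 and Dusp1, to values between 0.026 and 0.37. Without young 2 more members were called lower, in a fit that also called more of all tested genes lower. The Fos difference went from -0.85 ± 0.35 (edgeR adjusted p = 0.112) to -0.07 without young 1.

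The members' counts were also set against Fos within each library. Fosl2 had 1.59 and 2.31 counts per 100 Fos counts in the young libraries, 5.38, 7.97 and 4.64 in the NMDA libraries and 2.27 and 1.64 in the aged libraries. On this scale the young and aged libraries lay together, young 1 included, and all NMDA libraries were above them. Ier2 had 51.1 and 43.8 counts per 100 Fos counts in the young libraries, 25.4, 16.2 and 29.3 in the NMDA libraries and 50.5 and 47.4 in the aged libraries. Its NMDA libraries were all below the range of the undamaged ones. Jun had 65.7 and 72.0 in the young libraries, 58.5, 43.9 and 59.4 in the NMDA libraries and 95.7 and 88.4 in the aged libraries, 3 separate ranges.

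Dusp1 had 29.0 and 32.6 counts per 100 Fos counts in the young libraries, 16.0, 26.6 and 19.3 in the NMDA libraries and 34.5 and 37.7 in the aged libraries, so that the NMDA libraries were again the lowest. Nr4a1 had 11.998 and 12.115 in the young libraries, 7.56, 10.6 and 10.6 in the NMDA libraries and 5.47 and 5.45 in the aged libraries. The replicates of young and of aged cells were nearly equal in this ratio although their Nr4a1 levels differed 2.32-fold and 1.26-fold. Atf3 separated narrowly, at 2.49 and 6.21 in the young libraries, 6.23, 13.2 and 7.11 in the NMDA libraries and 4.87 and 2.84 in the aged libraries, with NMDA 1 just above young 2. Junb differed least, at 34.2 to 45.4 counts per 100 Fos counts over all 7 Müller libraries. No test was made on these ratios, which share their denominator.

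**Figure D3:**
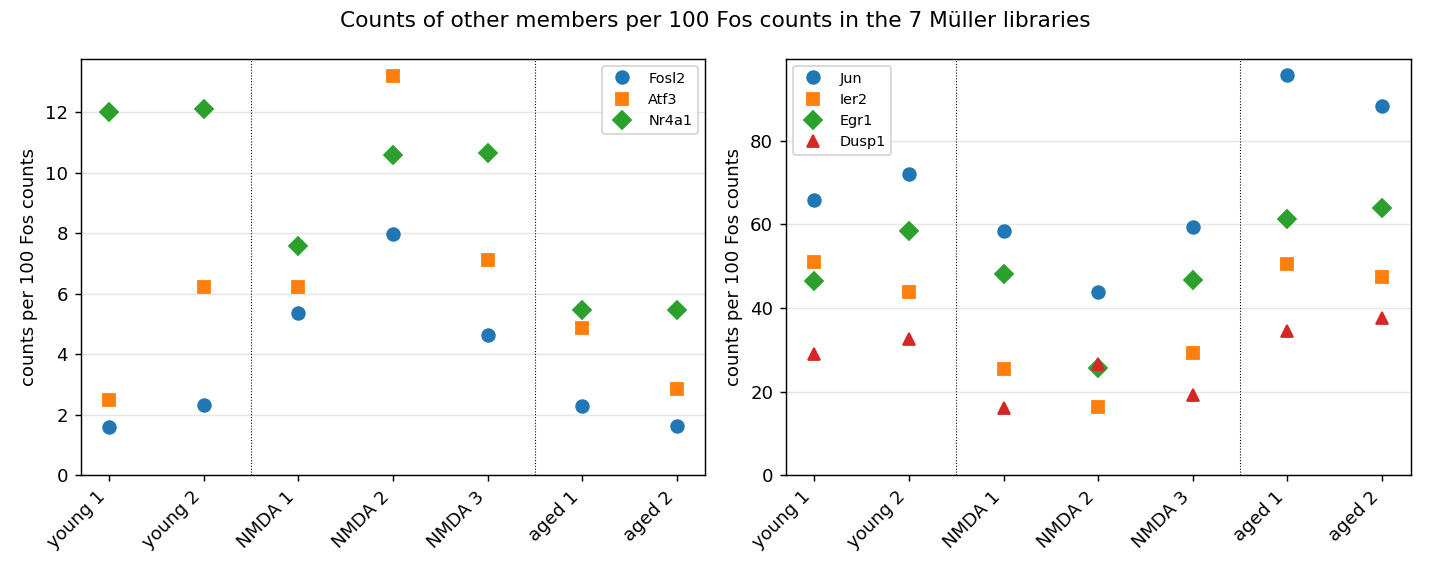
Counts of 7 members per 100 Fos counts of the same library in the 7 Müller libraries, on linear axes from 0, with dotted lines between the groups. Fosl2 is at 4.64 or more in the NMDA libraries and at 2.31 or less in the others, and Ier2 is at 29.3 or less after NMDA and at 43.8 or more in the others.

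Against RPCs the whole group separated. All 10 members were lower in RPCs than in young cells and than in aged cells, where 24.9% and 29.0% of tested genes were called lower. No RPC library overlapped a Müller library for any member, which 23.7% and 35.3% of tested genes also showed in the lower direction. The median log2 difference of the members was -6.27 against young cells and -5.21 against aged cells, beside 0.30 and 0.02 over all genes. All 360 member values over the 18 alternatives and both comparisons kept the direction and the call.

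The members fell into unequal depths of difference. Fos was at 0.689, 0.452 and 0.350 CPM in RPCs, from 10, 5 and 4 counts, a log2 difference of -11.69 ± 0.50 from young cells and -10.85 ± 0.49 from aged cells (edgeR adjusted p = 3.37e-07 and 3.06e-07). Fosb had 2, 2 and 0 counts, and its differences were -13.00 ± 0.74 and -12.30 ± 0.73 (edgeR adjusted p = 1.41e-06 and 1.53e-06). Egr1, with 5, 16 and 5 counts, differed by -10.23 ± 0.52 from young and -9.70 ± 0.51 from aged cells (edgeR adjusted p = 7.87e-07 and 7.3e-07). Atf3 had 3, 9 and 6 counts (0.207, 0.813 and 0.524 CPM), with differences of -6.94 ± 0.63 and -6.24 ± 0.62 (edgeR adjusted p = 2.28e-05 and 3.88e-05). All 4 genes were close to undetected in RPCs at 11067405 to 14520423 counts per library.

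Junb (1.72, 2.53 and 1.75 CPM in RPCs) was intermediate, with a difference of -8.44 ± 0.45 from young cells. Nr4a1 was at 3.86, 4.52 and 4.46 CPM and differed by -5.60 ± 0.40 from young but -3.61 ± 0.38 from aged cells. Fosl2 was at 1.03, 2.35 and 3.41 CPM, and its differences were the smallest, at -3.79 ± 0.52 and -3.09 ± 0.51. Jun, Ier2 and Dusp1 stayed measurable in RPCs. Jun was at 52.6, 44.7 and 49.3 CPM there, Ier2 at 32.4, 25.2 and 25.0 CPM and Dusp1 at 25.6, 23.3 and 21.9 CPM. Their differences from young cells were -4.57 ± 0.31, -4.92 ± 0.42 and -4.45 ± 0.38. RPC replicates differed by less than 1.3-fold for Jun, Ier2, Nr4a1 and Dusp1.

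Within RPCs the makeup of the group was another one. For each 100 Fos counts RPC libraries held 250, 560 and 500 Junb counts, whereas Müller libraries held 34.2 to 45.4, with the RPC figures resting on 4 to 10 Fos counts. Cell type, age and handling cannot be told apart here, because only the Müller cells are labelled as sorted. The 12 heat shock genes, a set also known to respond to dissociation, summed to 4640 to 4709 CPM in RPCs, above the 1553 to 3103 CPM of the Müller libraries. Most of the RPC sum came from Hsp90ab1 (2253 to 2363 CPM), Hsp90aa1 (975 to 1069 CPM) and Hspa8 (897 to 936 CPM). Of the 12 genes 6 were higher and 4 lower in RPCs than in young cells, where 6795 and 4713 of 18931 tested genes were called higher and lower. Hspa1a and Hspa1b, the inducible pair whose near-identical sequences make their split uncertain, were both lower in RPCs, at 1.40 to 2.26 CPM and 1.66 to 2.69 CPM against 27.0 to 64.5 CPM over both genes in young cells.

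Of 16 other AP-1 and ATF genes 13 were tested, and after NMDA 1 rose and 4 fell against young cells. Over all tested genes 30.6% were called higher and 14.3% lower. The riser was Fosl1, which encodes FRA1, the closest relative of the Fosl2 product. It was at 0 in both young libraries, 28.5, 9.43 and 13.9 CPM after NMDA, and 1.40 and 0.723 CPM in aged cells. Against the level that 3 counts over both young libraries would give, Fosl1 was at least 142-fold higher after NMDA (edgeR adjusted p = 0.000747). Against aged cells its log2 difference was 3.93 ± 0.83 (edgeR adjusted p = 0.0149). Young libraries hold many zeros, 13913 and 14919 detected genes against 20920 or more elsewhere, so the bound assumes that no low counts were removed before deposit. Jund, a JUN gene with high basal expression, was at 253 and 259 CPM in young cells and 172, 136 and 182 CPM after NMDA. Against aged cells its difference was -0.71 ± 0.15 (edgeR adjusted p = 0.0106). Atf7 and Atf2, CREB-like factors activated by stress kinases, fell after NMDA by 0.84 ± 0.14 and 0.51 ± 0.11 against young cells (edgeR adjusted p = 0.00179 and 0.00734).

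Of 30 other immediate early genes 29 were tested, and against young cells 5 rose and 7 fell after NMDA, against 5 and 2 relative to aged cells. Of all tested genes 30.6% were called higher and 14.3% lower against young cells, and 10.5% and 9.8% against aged cells. Without young 1 more of the list rose and fewer fell, while more of all tested genes were called in both directions. Sgk1, a kinase gene induced by glucocorticoids and osmotic stress, was at 0 in both young libraries and 115, 264 and 136 CPM after NMDA, at least 1470-fold higher (edgeR adjusted p = 2.59e-05). Its aged libraries had 75.2 and 59.1 CPM, at least 570-fold above young cells (edgeR adjusted p = 6.61e-05), and the NMDA difference from aged cells was 1.28 ± 0.36 (edgeR adjusted p = 0.0429). Both bounds rest on the zeros of the young libraries. Dnaja1, picked out by its values, was also low there, at 2.10 and 1.38 CPM, against 75.5 to 93.6 CPM in NMDA and aged libraries. Whether such young values come from the cells or from the libraries was not tested. Ctgf, a matrix protein gene driven by YAP and SRF, fell from 329 and 216 CPM to 86.5, 73.1 and 103 CPM, by 1.53 ± 0.21 (edgeR adjusted p = 0.000606). Ier5, a relative of Ier2, fell from 231 and 123 CPM to 50.5, 40.9 and 47.6 CPM, by 1.83 ± 0.26 (edgeR adjusted p = 0.000752). Trib1, a pseudokinase gene, was at 256, 213 and 210 CPM after NMDA against 62.5 and 68.2 CPM in aged cells, a difference of 1.71 ± 0.26 (edgeR adjusted p = 0.00288). With each library left out in turn, 3 to 14 rose and 4 to 13 fell against young cells, and 1 to 12 rose and 2 to 4 fell against aged cells. In RPCs 26 of the 29 were lower than in young cells and 1 was higher, where 4713 and 6795 of 18931 tested genes were called lower and higher.

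Of 15 dual-specificity phosphatase and Sprouty genes, the feedback inhibitors of the MAP kinase cascade to which Dusp1 belongs, 14 were tested. After NMDA 1 rose and 3 fell against young cells, beside 30.6% and 14.3% of all tested genes called higher and lower. Spry4 was at 67.2 and 22.8 CPM in young cells, 10.7, 4.26 and 8.40 CPM after NMDA and 40.2 and 41.3 CPM in aged cells. It fell by 2.43 ± 0.48 against young cells (edgeR adjusted p = 0.00377) and differed by -2.47 ± 0.48 from aged cells (edgeR adjusted p = 0.00814). Dusp6, which acts on ERK, rose by 0.66 ± 0.18 (edgeR adjusted p = 0.017), from 240 and 156 CPM to 277, 311 and 287 CPM. Against the aged libraries, at 225 and 193 CPM, its difference was 0.40 ± 0.18 (edgeR adjusted p = 0.158). Without young 1 more genes of this list rose and fewer fell, and without young 2 more fell. Both fits also called more of all tested genes in both directions. Of 21 MAP kinase, SRF and CREB genes upstream of the members 10 rose and 4 fell against young cells, beside the same 30.6% and 14.3%. Among the risers was Mapk14, which encodes p38, from 56.8 and 68.8 CPM to 114, 123 and 110 CPM, by 0.99 ± 0.11 (edgeR adjusted p = 0.000279). Mapk14 was as high in aged cells, at 129 and 114 CPM, and differed there from young cells by 1.14 ± 0.12 (edgeR adjusted p = 0.000299) and between NMDA and aged cells by -0.15 ± 0.11 (edgeR adjusted p = 0.397). Against aged cells 1 of the 21 rose and 2 fell, beside 10.5% and 9.8% of all tested genes. These numbers moved when single libraries were left out.

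Lists that follow injury and handling are set beside the members without a test of their part. Of 26 gliosis and injury genes 17 rose and none fell after NMDA against young cells, where 30.6% of all tested genes were called higher and 14.3% lower. Against aged cells 13 rose and 2 fell, beside 10.5% and 9.8% of all tested genes. The sum of the 26 genes was 10123 to 14072 CPM after NMDA against 3999 to 4764 CPM in young and aged cells. Of the 12 heat shock genes 5 rose and 2 fell after NMDA against young cells, and 5 rose and none fell against aged cells (2 to 6 rose with each library left out). Their sum was 2907 to 3103 CPM after NMDA, 2455 and 1714 CPM in young cells and 1638 and 1553 CPM in aged cells. Hsp90ab1 had the largest share, at 1041 to 1349 CPM after NMDA, 627 and 391 CPM in young cells and 446 and 419 CPM in aged cells. Hspa8, a constitutive chaperone gene, rose by 1.01 ± 0.14 against young cells (edgeR adjusted p = 0.000601). Other genes of the list went the other way. Hspa1b was at 64.5 and 49.3 CPM in young cells and 20.7, 27.8 and 26.0 CPM after NMDA. Dnajb1 was at 207 and 129 CPM in young cells and 81.4, 76.1 and 79.9 CPM after NMDA. The sum therefore does not stand for each gene. The sum of the members was 2895 to 3254 CPM after NMDA and 3060 to 8959 CPM in the undamaged Müller libraries, ranges that overlap through aged 2.

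The genes most like Fos over the 10 libraries, by Pearson r of log2 CPM among 10936 genes averaging at least 8 CPM, included Gnat1 (0.9988), Cacna1f, Grk1 and Arhgef37 (0.9981). For the mean of the members they were Lrit2 (0.9989), Tmem150c, Prph2, Grk1 and Nxnl1 (0.9975). An r above 0.95 was reached by 1039 genes with Fos and by 997 with the mean of the members. Over the 7 Müller libraries alone 18 genes had such an r with Fos, led by Pdhb (0.9835). Between members the 45 pairwise r values were 0.79 to 1.00 over 10 libraries (median 0.97) and -0.47 to 0.98 over the 7 Müller libraries (median 0.68). The matches over 10 libraries included photoreceptor genes such as Gnat1, at 895 to 2772 CPM in Müller libraries and 0.087 to 0.482 CPM in RPCs. These values come from the same libraries, which differ in depth and composition, and their source was not tested.

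The DNA of the start regions was nearly free of methylation in every group. Within 1000 bp of the start, 13 (Fos) to 101 (Jun and Ier2) CpG positions were covered by at least 10 reads in all 12 RRBS libraries. All 10 members had a mean methylation under 10% in every library, which 86.2% of 10747 genes also had. For Egr1 and Ier2, without a promoter entry, the gene end with more positions was used. At the Fos start, with library median coverages of 49 to 232 reads, levels were 3.34%, 2.95% and 3.31% in the young libraries, 0%, 0.865% and 0.606% in the NMDA libraries, 0.345%, 0.207% and 0.162% in the aged libraries and 1.08%, 2.26% and 1.60% in the RPC libraries. All values were a few percent or less, and the young libraries were highest. The start region of Fos thus had 3.20% ± 0.22 (SD, n = 3) in young cells, where Fos was at 934 CPM or more, and 1.65% ± 0.60 (SD, n = 3) in RPCs, where it was under 1 CPM.

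The young libraries were highest at all 10 members without overlap with NMDA, aged or RPC libraries, with differences from the young mean of -3.60 to -2.33 points for NMDA, -3.63 to -2.59 for aged and -2.75 to -1.56 for RPC libraries. Separation from the young libraries was common: 81.5%, 86.7% and 67.8% of 10747 gene starts did not overlap between these groups, counted in either direction. The median over all genes was 3.01% to 3.99% in young libraries, 0.779% to 0.863% after NMDA, 0.428% to 0.506% in aged and 0.726% to 2.14% in RPC libraries. A 2-sided exact permutation test of 3 against 3 libraries cannot go below p = 0.10, which is the value reached here.

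**Figure D4:**
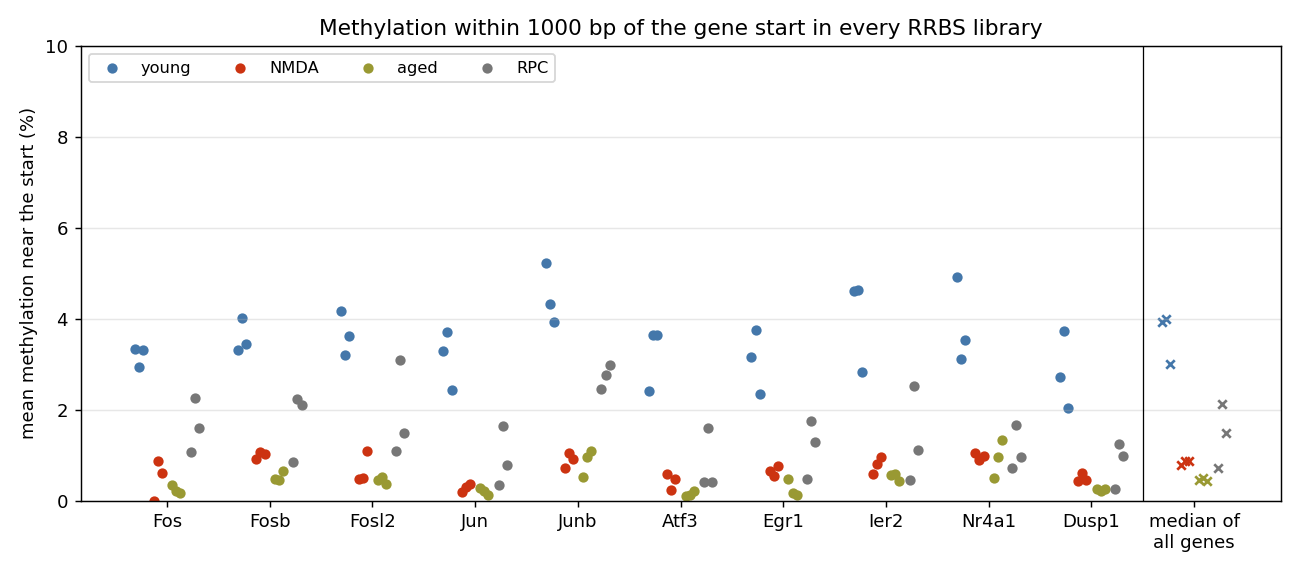
Mean methylation in percent of the CpG positions within 1000 bp of each member's start, with 1 point per RRBS library coloured by group, and the median over 10747 genes at the right (crosses). No value exceeds 5.23% (Junb, young 1), and the young libraries lie above the others at each member and in the median of all genes.

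Inside the genes, beyond 1000 bp from the start, 7 members had at least 5 such positions, all but Fos, Egr1 and Atf3. Jun, Fosb, Ier2 and Junb were low there too, with group means of 0.236% to 8.44%. Nr4a1 had 66 positions with a mean of 48.0% to 49.5% in every group, which joined low and high stretches (split at gaps over 500 bp). The 30 positions lying 12780 to 12926 bp before the start used had group means of 0.482% to 4.22%. The remaining stretches had group means of 50.4% to 96.3%. Among them a stretch of 3 positions had 50.4% ± 24.9 in young cells and 73.6% ± 7.72 in RPCs (SD, n = 3 each). Dusp1 and Fosl2 differed between groups, and this measure was added after positions across the genes had been seen.

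In Dusp1 the 8 positions lay at chr17:26506392-26506552, 1920 to 2080 bp after the start, on the files' mouse build (mm10 or GRCm38). Their mean was 38.8%, 38.0% and 44.5% in the young libraries, 60.4%, 60.3% and 64.6% in the NMDA libraries, 41.1%, 44.2% and 48.1% in the aged libraries and 82.5%, 85.8% and 84.5% in the RPC libraries, at median coverages of 14.5 to 112 reads. The RPC libraries were highest, the NMDA libraries lay between them and the undamaged Müller libraries, and young and aged overlapped. NMDA cells were 21.3 points above young cells (61.8% ± 2.46 against 40.5% ± 3.52, SD, n = 3 each, exact permutation p = 0.10). RPCs were 43.8 points above young cells (84.3% ± 1.65, exact permutation p = 0.10). Of 7001 gene bodies 25.9% were higher without overlap after NMDA than in young cells and 32.1% in RPCs than in young cells, and against aged cells, where Dusp1 did not overlap either, 39.6% and 42.9%. Dusp1 RNA had the reverse order of means. It was at 470 ± 233 CPM in young and 275 ± 26.4 CPM in aged cells (SD, n = 2 each). After NMDA it was at 191 ± 71.9 CPM and in RPCs at 23.6 ± 1.86 CPM (SD, n = 3 each). The young mean joins libraries at 635 and 305 CPM, and NMDA 2, at 271 CPM, lay between the aged libraries. With 4 groups no relation between the measures was tested.

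In Fosl2 the 38 inner positions averaged 41.2% ± 2.77 in the young group, 44.4% ± 2.29 in the NMDA group, 38.6% ± 4.29 in the aged group and 55.2% ± 0.49 in the RPC group (SD, n = 3 each). The gap between RPCs and the others came from 1 stretch. Splitting positions at gaps over 500 bp gave 3 stretches, and the 14 positions of the first, at chr5:32143331-32143504, lay 6859 to 7032 bp after the start. There the mean was 9.31%, 5.61% and 5.44% in the young libraries, 16.4%, 12.1% and 24.7% in the NMDA libraries, 2.12%, 5.02% and 3.36% in the aged libraries and 61.6%, 44.9% and 50.8% in the RPC libraries. The NMDA libraries were all above the young and aged ones and far below the RPC ones. Fosl2 RNA was highest after NMDA and lowest in RPCs, so over the 4 groups this stretch did not follow the RNA in 1 direction. The third stretch, 22 positions 16365 to 17049 bp after the start, had group means of 54.7% to 59.6%. That mean joined positions of opposite order. At 16925 bp RPCs had 16.4% and young cells 51.1%, and at 16415 bp RPCs had 76.9% and young cells 53.6%. Group means spanned over 20 points at 22 Fosl2 positions, with RPCs highest at 17 and lowest at 4. These stretches and positions were picked out by their values, and carry no test.

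**Figure D5:**
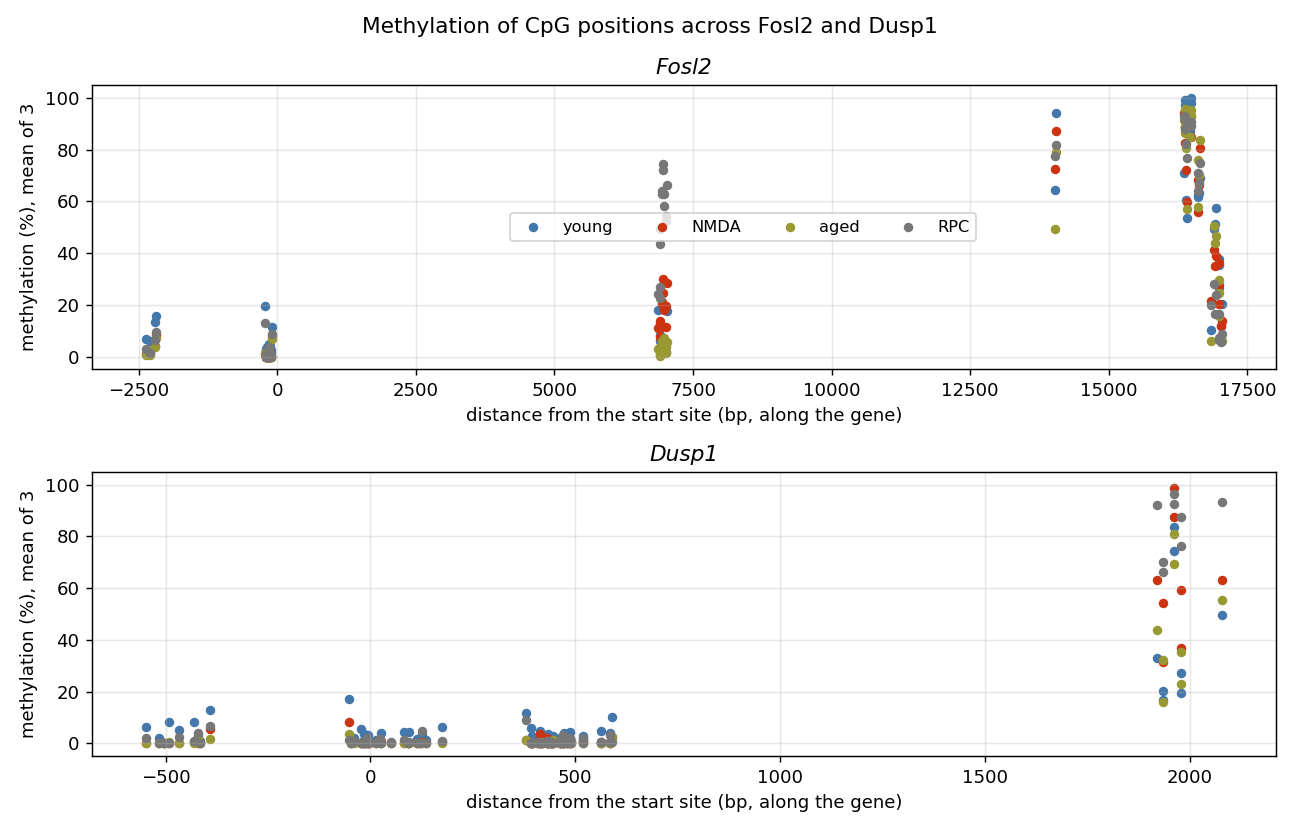
Mean methylation in percent (3 libraries per group) of each CpG position of Fosl2 and Dusp1 against its distance from the start site in bp along the gene. Both genes are near 0% around the start, and the groups part at 6859 to 7032 bp in Fosl2 and at 1920 to 2080 bp in Dusp1, where RPCs are highest at most positions. Farther along Fosl2 RPCs are lowest at some positions, such as 16925 bp (16.4%, against 51.1% in young cells).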

How the data were processed

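RNA libraries of 2 young, 3 NMDA, 2 aged and 3 RPC samples and RRBS libraries of 3 samples per group were analysed. The deposited RNA values are read counts per gene symbol. The counting tool and strand setting that the authors used were not named in the labels. The submitters' processing notes name the builds mm10 and GRCm38, HISAT2 2.0.4 and, without roles, methylKit 1.4.0, Bismark 0.16.3 and Trim Galore 0.4.3. The deposited RRBS values give, at each position with a coverage of 10 reads or more, the percent of methylated and of unmethylated reads (per the file headers). The members and lists were chosen with earlier results of these data known.

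Counts were fitted in R 4.3.3 with edgeR 4.0.16 (TMM scaling, its expression filter, quasi-likelihood over all 10 libraries, 6 residual degrees of freedom, common biological coefficient of variation 0.411). On simulated counts the fit recovered 178 of 200 changed genes with 8 false calls among 18931 genes (NMDA against young). Recovery of differences of the members' size, at the spread of these libraries and with a library like young 1, was not tested. Named genes were all 10 members, up to 3 called genes per list and comparison with the smallest adjusted p, and the 5 most similar profiles, of which 1 is not reported here; Jund in young cells, Trem2, Ptprc, Aif1, Gfap, Pdhb and the heat shock genes beyond that rule were chosen after their values were seen. Other lists were other AP-1 and ATF genes, other immediate early genes, phosphatase and Sprouty genes, upstream genes, heat shock, gliosis and cell type markers. RRBS positions were kept where all 12 libraries had at least 10 reads on autosomes (743808, with the strands as separate positions), at library median coverages of 53 to 110 reads, and averaged with Python 3.11.15 (numpy 2.4.6, pandas 2.3.3). The labels do not say that NMDA and RPC RNA libraries are biological replicates, as they do for the others, so p-values may measure technical spread there. Same-numbered libraries did not deviate together (r of -0.06 to 0.03), so they were not treated as pairs. Alternatives were a fit with the replicate number as block, leaving out each library, DESeq2 1.42.0, the compared groups alone, scaling by RLE or upper quartile, and a filter of 5 CPM or none.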

Additional observations from a re-analysis of the deposited data

How the results depend on the processing

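Both comparisons with RPCs kept all 10 members lower under every alternative run. Of the 180 member values per comparison, 132 kept direction and side of the threshold for NMDA against young cells, 154 for NMDA against aged cells and 159 for aged against young cells. Members called lower after NMDA against young cells, 5 in all, numbered 8 with upper-quartile scaling, 1 with the 2 groups alone, 2 with the replicate number as a block and 1 to 8 with each library left out, and those called higher 0 to 1. Members called higher against aged cells, 1 in all, numbered 0 with the replicate block, 2 with the 2 groups alone, 3 with DESeq2 and 0 to 3 with a library left out, and those called lower, 0 in all (1 of 10 at an unadjusted p under 0.05, edgeR), numbered 2 with the 2 groups alone and 0 to 2 with a library left out. Members called lower in aged than in young cells, 1 in all, numbered 0 with the 2 groups alone and 0 to 8 with a library left out. With a library left out, NMDA minus young ran from -1.17 to 0.10 for Fos, -1.60 to 0.08 for Fosb and -1.39 to 0.0031 for Junb. Aged minus young ran from -1.31 to 0.37 for Fosb, -0.85 to 0.29 for Jun, -1.21 to 0.18 for Junb, -0.92 to 0.026 for Egr1, -1.40 to 0.10 for Ier2 and -1.03 to 0.067 for Dusp1, the highest values being those without young 1. Junb NMDA minus aged ran from -0.35 to 0.0037, the latter without aged 1. An alternative added after seeing the data left out young 1 and NMDA 2 together: against young cells 1 member was higher and 2 lower after NMDA, and against aged cells 3 were higher and 3 lower. It turned NMDA minus young to 0.008 for Fos and 0.20 for Fosb, and aged minus young to 0.37 for Fosb, 0.29 for Jun, 0.18 for Junb, 0.026 for Egr1, 0.095 for Ier2 and 0.067 for Dusp1. With 1 library left in a group its spread was taken from the other groups. Start methylation stayed under 10% for all 10 members at a coverage of at least 20 reads, within 2000 bp and with each RRBS library left out, and within 500 bp for the 9 members that had enough positions. Causes were not tested. Fos, Fosb, Egr1 and Atf3 rest on under 20 counts per RPC library.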
